A study of Homo sapiens with 24 samples.

Results

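In HEK293 cells that overexpress ZC3H7B (ZC3H7B-OE), poly(A) RNA at 6 h of a uridine chase was compared with poly(A) RNA at 4 h of the same chase. The comparison rests on 6 of the 24 libraries of the series, 3 at 6 h and 3 at 4 h, assigned to the comparison by line and time as the labels give them. HEK293 is an established human embryonic kidney line. The line carries a Flag/HA-ZC3H7B construct and the control line a Flag/HA construct; all groups received 100 µM 4-thiouridine and 1 µg/mL doxycycline for 24 h, and then 10 mM uridine for the chase, so that the controls share every agent. The labels do not say whether either line is a single clone, or that the 3 libraries of a group came from separate cultures. P-values therefore measure the spread between these libraries, which may be technical.

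In a pulse-chase of this kind (SLAM-seq), 4-thiouridine is built into new RNA and is later read as C where T stood, so that a read carrying such T>C changes (a labelled read) comes from RNA made before the chase. Unlabelled reads come largely from RNA made after the switch to uridine, or from RNA that escaped the label. An mRNA with a short life loses its labelled copies early and is replaced by unlabelled ones, while a long-lived mRNA keeps its label. ZC3H7B and its paralog ZC3H7A are CCCH-type zinc finger proteins that bind RNA.

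The libraries held 2767623 to 3568508 reads at 6 h and 2548203 to 2966887 reads at 4 h. Labelled reads made up 29.6% ± 0.660 of a library at 6 h, against 45.5% ± 0.521 at 4 h (SD, n = 3 each), and the groups did not overlap; an exact two-sided permutation test of the difference of -15.9 percentage points gave p = 0.1, the smallest that 3 against 3 libraries allow. The 10 most abundant entries took 3.56% to 3.86% of the reads at 6 h, against 4.75% to 5.30% at 4 h, and their part in the results below was not tested. Of 19 markers of the embryonic kidney and neural lineage of HEK293, 18 were in the table and CITED1 was at 0 reads. Their summed level was 326 to 350.5 CPM (read counts scaled to a common library size) at 6 h and 298 to 328 CPM at 4 h. INA gave the most reads (1575 at 6 h, 1172 at 4 h). NEFM (1 and 0), PAX2 (3 and 3), LHX1 (4 and 4), NES (1 and 11), STMN1 (12 and 7) and NEFH (12 and 30) had few. VIM had 65 and 25. Among 12 leukocyte markers 6 were at 0 reads, PTPRC, CD3E and LYZ included. The list summed to 82.4 to 93.5 CPM at 6 h and 81.9 to 112 CPM at 4 h, mostly from CD68 (522 reads at 6 h, 515 at 4 h) and CD74 (223 and 122). Of 10 epithelial markers CDH1, KRT5 and KRT14 were at 0. Their sum of 122 to 142 CPM at 6 h and 130.1 to 214 CPM at 4 h came mostly from KRT10 (1110 and 1186 reads) and EPCAM (128 and 142). Of 13 fibroblast and endothelial markers CDH5, VWF, COL1A2, DCN and LUM were at 0. Their sum was 7.29 to 11.9 CPM at 6 h and 7.25 to 13.1 CPM at 4 h, mostly FBLN1. The part of these markers in the results was not tested. Outside these 6 libraries, the third control library at 0 h stands apart: its 10 most abundant entries took 10.7% of its reads. It enters the common fit, so the main counts are given with and without it.

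The overexpressed gene itself did not pass the test between the times. ZC3H7B had 262, 255 and 273 CPM at 6 h, against 285, 275 and 295 CPM at 4 h, scaled by TMM factors as are all levels per library from here on (log2 fold change -0.11 ± 0.16 SE, adjusted p = 0.673). In control cells it had 203, 221 and 209 CPM at 6 h, against 205, 219.7 and 249 CPM at 4 h, so every ZC3H7B-OE library lay above every control library of its time. The counts do not separate the construct from the endogenous gene. Labelled reads made up 21.5% ± 1.36 of ZC3H7B reads in ZC3H7B-OE cells at 6 h, against 45.2% ± 0.871 in control cells at 6 h, and 35.0% ± 2.96 in ZC3H7B-OE cells at 4 h, against 63.8% ± 2.81 in control cells at 4 h (SD, n = 3 each). ZC3H7A had 56.4, 64.0 and 65.2 CPM at 6 h, against 66.8, 90.6 and 84.1 CPM at 4 h, and did not pass the test either (-0.38 ± 0.18 SE, adjusted p = 0.151).

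Between 4 h and 6 h of chase, 862 of 10038 tested entries rose and 534 fell (edgeR quasi-likelihood test, Benjamini-Hochberg adjusted p under 0.05), which is 8.59% and 5.32% of the tested entries and 13.9% together. In the step before, 4 h against 2 h, which shares the 4 h libraries, 1494 rose and 1014 fell (14.9% and 10.1%). At least 2-fold changes were called for 127 entries that rose and 73 that fell (1.27% and 0.727%). Those that rose had a median log2 fold change of 0.68 and those that fell one of -0.67, against 0.05 over all entries. All 6 h libraries lay above all 4 h libraries in 855 of the entries that rose, and below them in 508 of those that fell; over all tested entries, 23.8% and 16.3% did so. Without the third control library at 0 h the counts were 1535 and 1098, with 1395 of the 1396 original calls among them. The total of 1396 also moved with single libraries of the comparison: it was 548 without the second library at 4 h, 561 without the third at 4 h, 585 without the first at 6 h and 689 without the second at 6 h. With the trend of each library on transcript GC content removed, 357 entries rose and 264 fell. The genes given below with values per library kept their call under each alternative tried, these included, unless a sentence says otherwise; 41 of the 137 called genes that the naming rule selected did so.

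Genes of varied function were among the largest rises, which also included the chaperone genes HSPA1B (log2 fold change 1.53) and CHORDC1 (1.40), given further below. GAS1, a membrane-anchored co-receptor of Hedgehog signalling, had 237, 249 and 237 CPM at 6 h, against 95.3, 79.4 and 62.2 CPM at 4 h (log2 fold change 1.61 ± 0.16 SE, adjusted p = 1.86e-07). SLC25A32, a mitochondrial folate carrier, had 33.7, 28.3 and 27.5 CPM at 6 h, against 13.9, 7.79 and 6.58 CPM at 4 h (1.65 ± 0.29 SE, adjusted p = 0.000509). AGFG1, a protein with nucleoporin-like repeats that serves nuclear export of HIV RNA, had 211, 222 and 208 CPM at 6 h, against 82.4, 78.3 and 65.1 CPM at 4 h (1.51 ± 0.16 SE, adjusted p = 4.84e-07). In all of these genes each 6 h library stood well above each 4 h library. GAS1 changed little before, with mean levels of 55.7 CPM at 0 h, 56.6 CPM at 2 h and 79.0 CPM at 4 h, whereas AGFG1 climbed through the chase, with 33.7, 50.7 and 75.3 CPM at the same times.

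Further rises came from the protein kinase CDK17, with 37.3, 39.9 and 46.5 CPM at 6 h, against 14.6, 12.6 and 17.9 CPM at 4 h (log2 fold change 1.45), and the palmitoyltransferase ZDHHC21, with 53.1, 49.8 and 61.2 CPM at 6 h, against 18.2, 22.3 and 20.1 CPM at 4 h (1.44). NPTN, which encodes the cell adhesion protein neuroplastin, had 169, 199 and 207 CPM at 6 h, against 78.1, 85.4 and 89.6 CPM at 4 h (1.18). The abundant RNA helicase gene DDX17 had 2189, 2311 and 2336 CPM at 6 h, against 1271, 1067 and 1147 CPM at 4 h (0.97 ± 0.13 SE, adjusted p = 3.77e-05). FAM46C, a cytoplasmic poly(A) polymerase, and DYNLL2, a dynein light chain, rose by 0.97 and 1.03 on the log2 scale. At 0 h DDX17 had averaged 313 CPM and NPTN 18.6 CPM, so both had climbed along the whole chase.

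Among the largest falls were genes of varied function too. POLL, the repair DNA polymerase lambda, had 6.56, 7.93 and 10.3 CPM at 6 h, against 28.1, 25.2 and 22.7 CPM at 4 h (log2 fold change -1.63 ± 0.26 SE, adjusted p = 0.000222). FGF18, a fibroblast growth factor, had 11.3, 9.62 and 7.33 CPM at 6 h, against 15.9, 37.9 and 24.5 CPM at 4 h (-1.45 ± 0.31 SE, adjusted p = 0.0027), a wide spread at 4 h that still did not reach the 6 h values. C19orf48 had 66.8, 60.6 and 60.5 CPM at 6 h, against 134, 156 and 147 CPM at 4 h (-1.22 ± 0.15 SE, adjusted p = 4.35e-06). C19orf48 had been highest at the start of the chase, with means of 365, 247 and 146 CPM at 0, 2 and 4 h.

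The nucleotidase genes NT5C and NT5C3B fell as well. NT5C, which removes phosphate from deoxyribonucleotides, had 53.7, 60.6 and 57.9 CPM at 6 h, against 104, 128 and 116 CPM at 4 h (-1.01), and NT5C3B, which acts on 7-methylguanosine phosphate, had 100.2, 92.3 and 88.3 CPM at 6 h, against 155, 200.4 and 182 CPM at 4 h (-0.94). TIMM13, a small chaperone of the mitochondrial intermembrane space, had 179.9, 211 and 220.2 CPM at 6 h, against 343, 429 and 378 CPM at 4 h (-0.91 ± 0.13 SE, adjusted p = 4.19e-05). NAA10, the catalytic subunit of the main N-terminal acetyltransferase, had 94.9, 113 and 109 CPM at 6 h, against 169, 233 and 179.9 CPM at 4 h (-0.88). In these genes the lowest 4 h library was above the highest 6 h library by a wide margin.

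**Figure D1:**
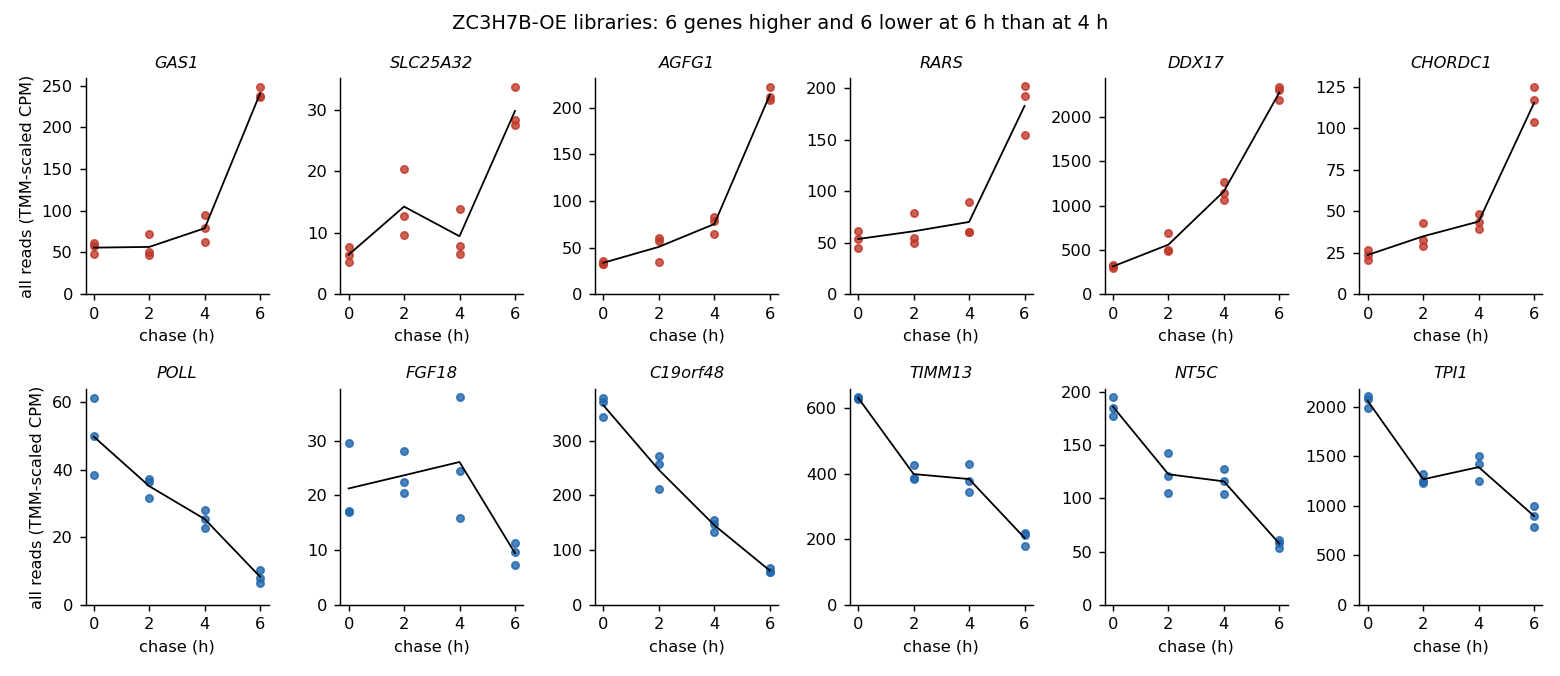
TMM-scaled CPM of all reads (vertical axes, from 0) against hours of chase (horizontal axes) in the ZC3H7B-OE line for 6 genes that rose and 6 that fell between 4 h and 6 h; points are libraries, 3 per time, and lines join the means. DDX17 and AGFG1 climb through the chase and GAS1 mainly at 6 h, whereas C19orf48 is lower at each later time than its 365 CPM at 0 h and TPI1 is lower at 2 h than at 4 h.

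Most of the entries called between 4 h and 6 h were at an extreme of the whole chase. The mean at 6 h was the highest of the 4 times in 831 of the 862 entries that rose (96.4%, against 37.0% of all tested entries) and the lowest in 513 of the 534 that fell (96.1%, against 35.4%). Means rose at each step in 588 of those that rose (68.2%, against 23.9% of all tested entries). They fell at each step in 319 of those that fell (59.7%, against 21.4%). The calls themselves rest on the 6 h and 4 h levels, while all tested entries include those that moved the other way. A higher share among called entries is therefore largely set by their selection. Since the 4 h libraries also enter both steps, these counts describe the courses and are not independent evidence.

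Immediate early and other short-lived mRNAs, many of which encode transcription factors and regulators of growth signals, held 12 rises and no fall among 41 tested members. The share of 29.3% higher stands beside 8.59% of all entries, and the median log2 fold change was 0.37 (0.05 over all entries). The shares of the lists that follow, from the main fit, are likewise to be read beside 8.59% higher and 5.32% lower over all entries. List counts under an alternative are to be read beside its own counts over 10038 to 10526 tested entries. Without the first, the second and the third library at 4 h, 782, 345 and 340 entries rose and 476, 203 and 221 fell. Without those at 6 h, 431, 445 and 592 rose and 154, 244 and 377 fell. With the GC trend removed 357 rose and 264 fell, and without the third control library at 0 h 1535 rose and 1098 fell. JUN, a subunit of the transcription factor AP-1, had 734, 806 and 837 CPM at 6 h, against 583, 510.0 and 510.1 CPM at 4 h (0.57 ± 0.12 SE, adjusted p = 0.00244). FOSL2, another AP-1 subunit, had 119.9, 118 and 136 CPM at 6 h, against 82.0, 52.0 and 61.1 CPM at 4 h (0.94), and IER5 had 209.7, 198 and 209.9 CPM at 6 h, against 127, 123 and 112 CPM at 4 h (0.77). The count of 12 fell to 5 and 7 without the second and the third library at 4 h and to 6 without the third at 6 h, and was 11 with the GC trend removed. The ERK feedback list, with the phosphatases and Sprouty proteins that damp growth factor signalling, had 6 of 20 members higher (30%) and none lower, with a median of 0.46. The count was 1 and 2 without the second and the third library at 4 h, 3 without any 1 library at 6 h and 5 with the GC trend removed.

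Genes of DNA replication and p53 targets were called higher at a larger share than all entries, mitotic genes at nearly the same share. Of 46 genes of DNA replication and S phase 9 rose (19.6%) and none fell, median 0.25. The rises were 4 without the second or the third library at 4 h or the second at 6 h and 5 without the first at 6 h. With the GC trend removed 3 rose and 1 fell, and without the third control library at 0 h 14 rose and 1 fell. CDC6, which loads the replicative helicase, had 72.2, 99.6 and 92.0 CPM at 6 h, against 43.0, 35.3 and 47.9 CPM at 4 h (1.06 ± 0.21 SE, adjusted p = 0.00127). CDC7, the kinase that fires replication origins, had 216, 227 and 175 CPM at 6 h, against 93.6, 115 and 106 CPM at 4 h (0.98). Of 24 p53 targets 7 rose and 2 fell (29.2% and 8.33%), median 0.22. The rises were 2 and 1 without the second and the third library at 4 h, 3 and 4 without the first and the second at 6 h, and 3 with the GC trend removed. The falls were 0 with the GC trend removed or without the first library at 4 h or the first or the second at 6 h, and 1 without the third at 4 h. CDKN1A, the CDK inhibitor p21, had 186, 182 and 236 CPM at 6 h, against 125, 123 and 128 CPM at 4 h (0.68 ± 0.16 SE, adjusted p = 0.00605). Among 46 mitotic genes 4 rose and 2 fell (8.70% and 4.35%). The rises were 1 without the second library at 4 h or with the GC trend removed, 2 without the third at 4 h or the first or the second at 6 h, and 10 without the third control library at 0 h, where 3 fell. Falls were 1 without the second library at 4 h or the first or the second at 6 h. PSRC1, a microtubule-binding protein, fell to 23.0, 26.6 and 28.2 CPM at 6 h, against 47.0, 58.3 and 59.6 CPM at 4 h (-1.08).

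Most of the called chaperone genes were higher at 6 h, and 22 of the 29 tested had a positive log2 fold change. Of 29 heat shock and cytosolic chaperone genes 8 rose and 1 fell (27.6% and 3.45%), with a median of 0.18. The rises were 4 without the second library at 4 h, 5 without the first at 6 h and 3 without the third at 4 h or the second at 6 h. Without the third control library at 0 h 9 rose and 2 fell, and 3 rose and 2 fell with the GC trend removed, where the median was -0.03. CHORDC1, a co-chaperone of Hsp90, had 125, 117 and 104 CPM at 6 h, against 43.3, 48.3 and 39.5 CPM at 4 h (1.40 ± 0.22 SE, adjusted p = 0.000152). HSPA1B, an inducible Hsp70 gene, had 521, 513 and 808 CPM at 6 h, against 224, 183 and 232 CPM at 4 h (1.53 ± 0.25 SE, adjusted p = 0.000605); it is nearly identical to HSPA1A, so the split of reads between the copies is uncertain. HSP90AB1, the constitutive cytosolic Hsp90, had 389, 516 and 561 CPM at 6 h, against 668, 693 and 717 CPM at 4 h (-0.50 ± 0.12 SE, adjusted p = 0.00735), and lost the call without the first library at 6 h (-0.37, adjusted p = 0.0804).

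The promoter windows of CHORDC1 and HSP90AB1, which moved in opposite directions, hold the same motif and are shown for that reason. The sequences are RefSeq windows of GRCh38.p14, from 250 bases before to 50 bases after a gene's start, written 5' to 3' on the gene's strand, and capitals mark matches to the heat shock element, written GAA, any 2 bases, TTC, any 2 bases, GAA, on either strand; overlapping matches run together. HSP90AB1 has 3 windows in the table, of which this is the only one with a match.
CHORDC1, chr11:90223000-90223299 (- strand): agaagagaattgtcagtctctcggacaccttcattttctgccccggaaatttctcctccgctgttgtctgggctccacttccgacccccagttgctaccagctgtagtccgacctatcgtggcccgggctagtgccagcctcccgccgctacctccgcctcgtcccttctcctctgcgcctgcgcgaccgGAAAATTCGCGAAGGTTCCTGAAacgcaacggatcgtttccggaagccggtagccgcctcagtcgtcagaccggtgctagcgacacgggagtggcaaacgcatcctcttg
HSP90AB1, chr6:44247693-44247992 (+ strand): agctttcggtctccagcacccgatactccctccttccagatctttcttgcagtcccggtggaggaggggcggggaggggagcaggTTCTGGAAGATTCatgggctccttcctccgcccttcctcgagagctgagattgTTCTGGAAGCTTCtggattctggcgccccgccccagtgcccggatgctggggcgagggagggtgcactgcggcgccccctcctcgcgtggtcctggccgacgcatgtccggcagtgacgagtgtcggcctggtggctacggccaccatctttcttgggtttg
The CHORDC1 window held 3 overlapping matches and the HSP90AB1 window 2 separate ones. A match was present in 172 of 35116 promoter windows (0.490%), in 33 of the 10737 windows of tested genes (0.307%), in 5 of 942 windows of genes that rose (0.531%) and in 1 of 555 windows of genes that fell (0.180%). Among the 29 chaperone genes 26 had a window and 6 a match; the other members with one, HSPA8, HSP90AA1, HSPD1 and DNAJA1, had log2 fold changes between -0.24 and 0.22, none of them called.

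The integrated stress response, the program that ATF4 runs when amino acids are short or proteins misfold, was among the lists with calls in 1 direction. Of 42 tested members 7 fell (16.7%) and none rose, with a median of -0.26. The falls were 3 and 4 without the first and the second library at 6 h, 4 with the GC trend removed, and 15 without the third control library at 0 h, where 1 rose. JDP2, a bZIP protein that represses AP-1 sites, had 18.2, 15.0 and 16.9 CPM at 6 h, against 31.4, 37.1 and 29.6 CPM at 4 h (-0.97 ± 0.19 SE, adjusted p = 0.00127). CBS, which makes cystathionine from homocysteine, had 80.5, 87.5 and 88.7 CPM at 6 h, against 140.3, 134 and 141 CPM at 4 h (-0.70). JDP2 has 3 promoter windows, and the one below holds TGATGNAA, the response element of C/EBP-ATF dimers, in capitals (either strand searched).
JDP2, chr14:75427772-75428071 (+ strand): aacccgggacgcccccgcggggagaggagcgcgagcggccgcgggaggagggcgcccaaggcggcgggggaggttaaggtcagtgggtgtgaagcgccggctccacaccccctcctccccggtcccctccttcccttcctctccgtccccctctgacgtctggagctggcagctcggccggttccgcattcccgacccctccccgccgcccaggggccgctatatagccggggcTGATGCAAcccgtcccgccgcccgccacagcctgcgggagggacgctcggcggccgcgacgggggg
This motif was found in 3.62% of all 35116 windows, in 1.97% of those of tested genes, in 2.34% of the windows of genes that rose and in 1.80% of those of genes that fell. Of the 42 members of the list 32 had a window and 8 a match, of which 2 were called.

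The unfolded protein response of the endoplasmic reticulum showed calls both ways, 5 rises and 2 falls among 26 members (19.2% and 7.69%), median -0.04. With the GC trend removed 2 rose. The falls were 0 without the second or the third library at 4 h or the first at 6 h, 1 without the second or the third at 6 h, and 6 without the third control library at 0 h. ERN1, the stress sensor IRE1, had 117, 98.5 and 122 CPM at 6 h, against 55.9, 54.2 and 51.6 CPM at 4 h (1.06 ± 0.17 SE, adjusted p = 0.000186).

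Genes for protein synthesis split by class. Of 70 cytosolic ribosomal protein genes 15 fell (21.4%) and none rose; 66 had a negative log2 fold change and the median was -0.64. Their summed level was 12010 to 12749 CPM at 6 h, against 14368, 20672 and 18076 CPM in the libraries at 4 h. The first 4 h library is thus the lowest of its group, and 23 genes fell without it, 2 without the second library at 4 h or without the first at 6 h, 5 without the third at 4 h or the second at 6 h, and 10 without the third at 6 h. With the GC trend removed 9 fell, and 36 without the third control library at 0 h. RPL13 had 40.3, 45.0 and 42.5 CPM at 6 h, against 55.3, 102 and 87.8 CPM at 4 h (-0.93 ± 0.19 SE, adjusted p = 0.00213). Many of these genes have processed pseudogenes, so the sharing of reads among copies is uncertain. Of 63 mitochondrial ribosomal protein genes 13 fell (20.6%) and none rose, median -0.40. The falls were 2 once the GC trend was removed, 4 without the second library at 4 h or the first at 6 h, 6 without the third at 4 h and 8 without the second at 6 h. A single gene rose without the first library at 4 h, and 24 fell and 3 rose without the third control library at 0 h. MRPL28 had 110.1, 138 and 143 CPM at 6 h, against 220.0, 229 and 227 CPM at 4 h (-0.79).

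Factors that build or use ribosomes had medians near 0 or below. Ribosome biogenesis factors were nevertheless called higher at a larger share than all entries. Translation factors and aminoacyl-tRNA synthetases had few calls, at shares near those of all entries. Of 64 ribosome biogenesis factors 10 rose (15.6%) and 2 fell, with a median of -0.05 and 34 of the 64 below 0. The rises were 5 without the second library at 6 h, 6 without the first at 6 h, without the second or the third at 4 h or with the GC trend removed. The falls were 0 without the first library at 6 h, 1 without the second or the third at either time, and 8 without the third control library at 0 h. DDX18, a nucleolar helicase, had 168, 141 and 145 CPM at 6 h, against 88.7, 73.5 and 68.4 CPM at 4 h (0.97). WDR12 of the PeBoW complex rose by 0.92 and the nucleolar protein gene RRP1B by 0.71 on the log2 scale. Among 18 aminoacyl-tRNA synthetase genes 1 rose (5.56%) and none fell. With the GC trend removed 1 fell, and without the third control library at 0 h 2 rose and 1 fell. The gene that rose was RARS, the arginyl-tRNA synthetase, with 155, 192 and 202 CPM at 6 h, against 90.0, 60.5 and 60.0 CPM at 4 h (1.38 ± 0.21 SE, adjusted p = 0.000137), while the list's median was -0.22. Of 42 translation initiation and elongation factors 5 rose and 2 fell (11.9% and 4.76%), the scaffold EIF4G3 among the rises (0.84), with a median of 0.05. Leaving out any 1 library gave 2 or 3 rises, and 1 rose with the GC trend removed, where 357 of all 10038 entries rose. The falls were 4, 0 and 1 without the first and the second library at 4 h and the first at 6 h. There were 12 rises and 7 falls without the third control library at 0 h.

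Energy metabolism genes lay mostly below 0. Of 17 glycolytic genes 7 fell (41.2%) and none rose, median -0.38; 4 fell without the first library at 6 h and 2 with the GC trend removed. TPI1, triosephosphate isomerase, had 788, 899 and 999 CPM at 6 h, against 1249, 1421 and 1498 CPM at 4 h (-0.63 ± 0.13 SE, adjusted p = 0.00127). Respiratory complex I had 3 of 29 subunits lower (10.3%) and 2 higher (6.90%) with a median of -0.69, and complexes II to V had 5 of 32 lower (15.6%), none higher and a median of -0.64. The falls in complex I were 6, 0 and 1 without the first, the second and the third library at 4 h and 1, 2 and 1 without those at 6 h, with 1 rise each time. The falls in complexes II to V were 10 without the first library at 4 h, 0 without the second or the third at 4 h or the first at 6 h, and 2 without the second at 6 h. Without the third control library at 0 h complex I had 12 falls and complexes II to V 18 falls and 1 rise. With the GC trend removed, complex I had 1 fall and 0 rises and complexes II to V 5 falls. These 5 are not all the same genes: ATP5D of ATP synthase and CYC1 of complex III lost their call there (edgeR, adjusted p = 0.268 and 0.185). Of 15 genes of pyrimidine and uridine metabolism 5 fell (33.3%) and none rose, NT5C included, with a median of -0.40. There were 2 falls with the GC trend removed, without the second library at 4 h or without the first at 6 h, 3 without the first or the third at 4 h or the second at 6 h, and 8 without the third control library at 0 h. In fatty acid synthesis 3 of 14 genes rose and 2 fell (21.4% and 14.3%). With the GC trend removed 1 rose and 2 fell, and 1 fell without the third library at 4 h or the first or the third at 6 h. ACSL4, which activates arachidonate, had 123, 126 and 122 CPM at 6 h, against 64.8, 55.7 and 68.7 CPM at 4 h (0.97), and the desaturase FADS1 had 70.1, 69.1 and 60.8 CPM at 6 h, against 104, 105 and 105 CPM at 4 h (-0.65).

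In the main fit, mRNA decay genes were called higher at a larger share than all entries and CCCH zinc finger genes at a smaller one. The share of SR proteins and their kinases was larger too, but it rests on 4 rises. Of 55 genes of mRNA decay and deadenylation 11 rose (20.0%) and 1 fell, median 0.21. The rises were 1 without the second or the third library at 4 h, 4 without any 1 library at 6 h and 3 with the GC trend removed. Over all entries, 345 of 10130 and 340 of 10133 rose without the second and the third library at 4 h. The larger share of the mRNA decay genes was thus not kept there. The fall was lost without the second or the third library at 4 h or any 1 at 6 h. Of 39 CCCH zinc finger genes 1 rose and 1 fell (2.56% each), and 5 rose and 4 fell without the third control library at 0 h. Their median of 0.27, with 26 of the 39 above 0, was nevertheless not below that of the mRNA decay genes. The rise was that of ZC3H11A (log2 fold change 0.72), which lost its call without any 1 library but the first at 4 h and with the GC trend removed (adjusted p = 0.363). The fall was that of PPP1R10, which targets protein phosphatase 1 in the nucleus, with 70.7, 63.7 and 76.2 CPM at 6 h, against 125, 112 and 131 CPM at 4 h (-0.81 ± 0.16 SE, adjusted p = 0.00124). Among 22 SR proteins and their kinases 4 rose (18.2%) and 1 fell, median 0.06, with 2 rises without the third library at 4 h. With any 1 of the 6 libraries left out no member fell, while 3 fell with the GC trend removed and 2 without the third control library at 0 h. The kinase gene SRPK1 had 349.9, 320.4 and 321 CPM at 6 h, against 214, 203 and 185 CPM at 4 h (0.72), and the splicing factor gene SRSF1 had 1572, 1624 and 1621 CPM at 6 h, against 1291, 1026 and 1079 CPM at 4 h (0.50).

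**Figure D2:**
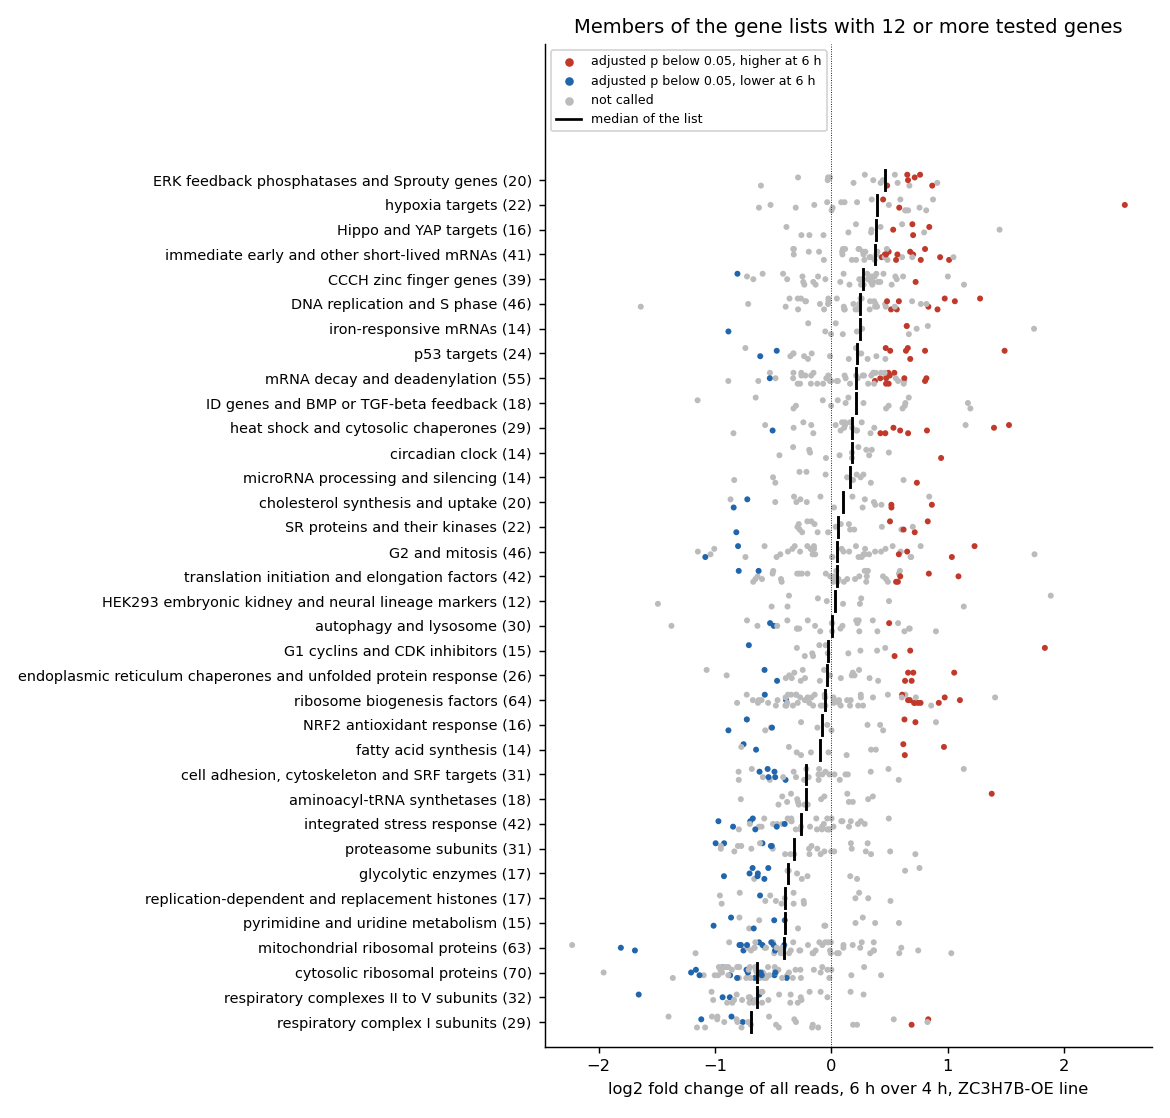
Log2 fold change of all reads, 6 h over 4 h, in the ZC3H7B-OE line (horizontal axis) for each tested member of the gene lists with 12 or more tested genes (rows, number in parentheses); colour marks calls and the bar the list's median. The medians run from -0.69 for complex I subunits to 0.46 for the ERK feedback genes, and called members of cytosolic ribosomal protein genes, glycolytic enzymes and the integrated stress response lie on the lower side.

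Labelled and unlabelled reads changed differently in the genes that rose and in those that fell. With library sizes of all reads, 3232 of 8490 entries fell and 10 rose in labelled reads (38.1% and 0.118%), and 2367 of 8704 rose and 191 fell in unlabelled reads (27.2% and 2.19%). Since labelled reads became a smaller part of every library, scaling matters here: scaled by their own totals, labelled reads gave 82 rises and 58 falls and unlabelled reads 278 and 599. Labelled falls were 2076 without the first library at 6 h, and unlabelled rises 1522 without the second library at 4 h. Unlabelled falls were 81 without the first library at 6 h, 112 without the second, 89 without the second library at 4 h and 108 without the third. Entries that rose in all reads had a median log2 fold change of -0.15 in labelled and 1.03 in unlabelled reads, and 840 of the 851 tested rose in unlabelled reads. Entries that fell had medians of -0.83 in labelled and -0.48 in unlabelled reads, against -0.60 and 0.44 over all entries. All reads are the sum of both kinds, so these medians describe the calls and do not test them.

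Single genes show how different the label was in them. In JUN labelled reads made up 5.88% ± 0.958 at 6 h, against 15.0% ± 3.07 at 4 h, and in GAS1 6.33% ± 0.402 at 6 h, against 15.3% ± 3.71 at 4 h (SD, n = 3 each). In POLL the share was 82.3% ± 12.7 at 6 h, against 78.6% ± 8.28 at 4 h, and in C19orf48 74.7% ± 4.67 at 6 h, against 81.6% ± 2.03 at 4 h. JUN and GAS1 thus consisted almost wholly of unlabelled reads at 6 h, POLL and C19orf48 mainly of labelled ones. FGF18 differed from the other falls, with 28.5% ± 13.8 at 6 h, against 29.8% ± 6.71 at 4 h. In control cells, whose libraries the calls do not compare, the median labelled share at 4 h was 43.1% for the entries that rose, 61.2% for those that fell and 46.8% for all tested entries. At 0 h in control cells the order was reversed, with 93.9%, 70.4% and 87.6%. The entries that fell thus held more unlabelled reads before the chase began.

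**Figure D3:**
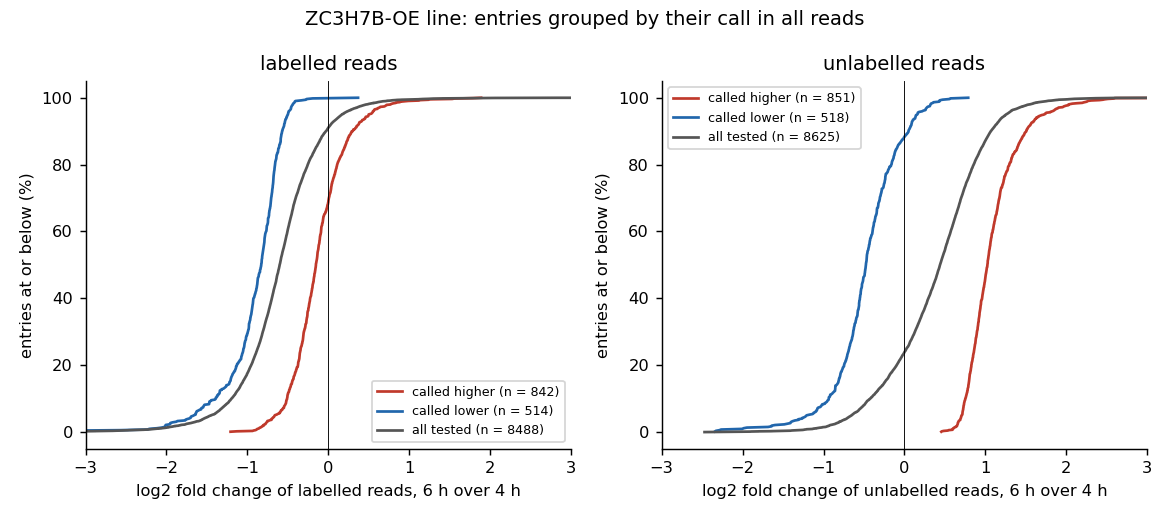
Cumulative share of entries (vertical axes, %) by log2 fold change, 6 h over 4 h, of labelled reads (left) and unlabelled reads (right) in the ZC3H7B-OE line, for entries called higher, called lower and all tested in all reads. The medians of the called higher, called lower and all entries are -0.15, -0.83 and -0.60 for labelled reads and 1.03, -0.48 and 0.44 for unlabelled reads.

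Base composition and length differed between the groups of called genes. GC3, the GC content at the third codon position, had a median of 45.9% in the entries that rose, against 59.5% in all tested entries, and of 73.9% in those that fell. Median transcript length was 4654 bases for rises, 1798 bases for falls and 3187 bases over all; the median 3' UTR measured 2458, 466 and 1117 bases in the same order. With the entries split by GC3 into 5 bins of equal size, in the lowest bin (22.3% to 41.7%), 17.3% rose and 0.318% fell, with a median log2 fold change of 0.34. In the highest bin (76.1% to 100.0%), 3.08% rose and 11.2% fell, with a median of -0.21. Across 9416 genes, which are not independent replicates, Spearman's rho of the log2 fold change was -0.37 with GC3, -0.43 with transcript GC and 0.33 with transcript length in ZC3H7B-OE cells, and -0.32, -0.37 and 0.13 in control cells.

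In the control line the medians were 0.25 in the lowest bin and -0.21 in the highest; the difference between the lines was not tested. The libraries themselves moved with it: the mean transcript GC weighted by reads was 48.3% to 48.7% in the ZC3H7B-OE libraries at 6 h, against 49.5% to 49.7% at 4 h, and had been 52.3% to 52.6% at 0 h. With the trend on transcript GC removed in each library, 450 of the 1396 calls remained, and with those on GC and length removed, 509. JUN, FOSL2, IER5, GAS1, AGFG1, CHORDC1, POLL, C19orf48 and JDP2 were among the genes that kept their call under both corrections.

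**Figure D4:**
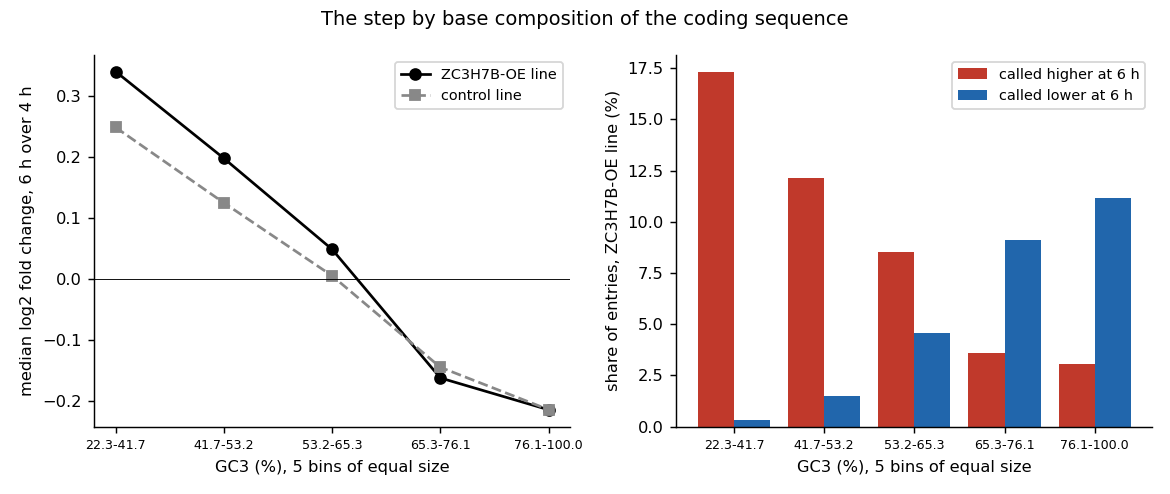
Left, median log2 fold change, 6 h over 4 h, of tested entries in 5 bins of GC3 (horizontal axis, %), in the ZC3H7B-OE and the control line; right, share of the entries (%) called higher or lower in the ZC3H7B-OE line. The median runs from 0.34 to -0.21 in the ZC3H7B-OE line and from 0.25 to -0.21 in the control line across the bins.

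The same step was measured in control cells, with no library shared. There 489 entries rose and 319 fell (4.87% and 3.18%), and the total of 808 was 484, 246 and 264 without the first, the second and the third control library at 4 h, and 278 and 290 without the first and the third at 6 h. Of the rises in ZC3H7B-OE cells 323 were called higher in control as well, 37.5% of the ZC3H7B-OE list and 66.1% of the control list; of the falls 155 were shared, 29.0% and 48.6%. No entry was called in opposite directions. The sign was the same in control for 96.2% of the rises and 96.6% of the falls, against 73.1% of all entries, and the median log2 fold changes in control were 0.45 and -0.42.

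A difference between the lines in this step was called for 0 of 10038 entries (0%, edgeR, smallest adjusted p = 0.394). An unadjusted p under 0.05 was found for 520 entries, 5.18% of those tested. That number was 1001 of 10526 without the third control library at 0 h, where 1 entry was called. In the 12 libraries of both steps alone it was 1182 of 9747. DESeq2 called 1 and limma 0, and edgeR on the 12 libraries of both steps alone called 15, all higher in ZC3H7B-OE cells. GAS1 changed by 1.61 in ZC3H7B-OE and 1.80 in control cells, a difference of -0.20 (95% interval -0.65 to 0.25), and CHORDC1 by 1.40 and 1.27, a difference of 0.13 (-0.48 to 0.74). For JUN the difference was 0.19 (-0.16 to 0.53). JDP2 changed by -0.97 in ZC3H7B-OE and -0.40 in control cells, a difference of -0.57 (-1.11 to -0.04), and RPL13 by -0.93 and -0.06, a difference of -0.88 (-1.45 to -0.30); neither passed the adjusted test. The median of the cytosolic ribosomal protein genes was -0.64 in ZC3H7B-OE and -0.19 in control cells. That of complex I subunits was -0.69 and -0.24, and that of complexes II to V -0.64 and -0.16. Medians lay closer for immediate early and other short-lived mRNAs (0.37 and 0.40) and ERK feedback genes (0.46 and 0.44). DNA replication genes had 0.25 and 0.34, and heat shock and cytosolic chaperones 0.18 and 0.25. The differences between the lines were not tested as lists.

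**Figure D5:**
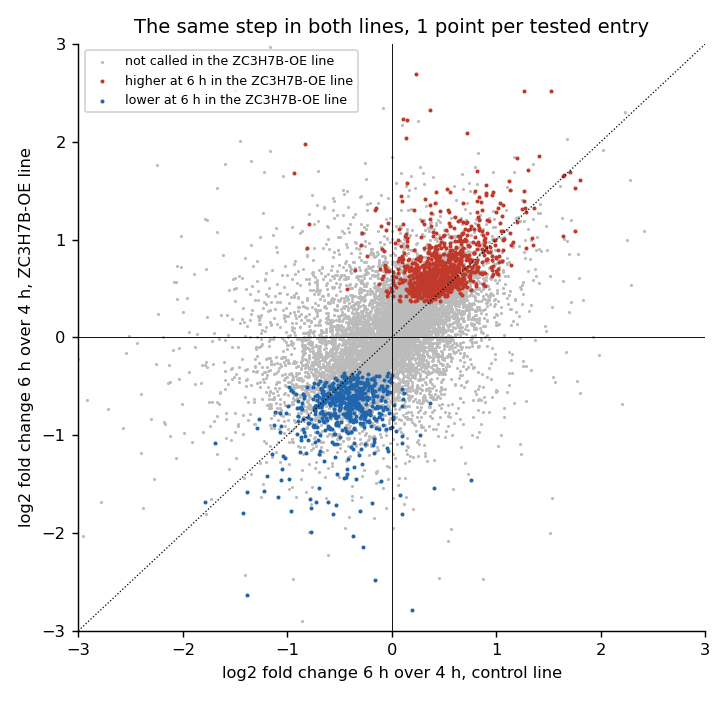
Log2 fold change of all reads, 6 h over 4 h, in the ZC3H7B-OE line (vertical axis) against the same in the control line (horizontal axis), 1 point per tested entry, with entries called in the ZC3H7B-OE line coloured; 10 entries lie outside the axes and the dotted line marks equal changes. Called entries lie mostly in the upper right and lower left corners, 829 of 862 rises and 516 of 534 falls having the same sign in control.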

How the data were processed

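The authors deposited 2 tables of whole-number read counts per gene, for all reads and for T>C reads, not normalized. The submitters' processing notes name fastp and GRCh37; no aligner, caller of conversions or counting rule is given in the sources used here. Of 19692 entries, 450 name several genes; they stayed in library sizes and tests.

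All 24 libraries were fitted with edgeR 4.0.16 (R 4.3.3, limma 3.58.1): robust quasi-likelihood, a mean per group, TMM, filterByExpr at a minimum count of 10 (10038 entries kept). The SE of a log2 fold change is its size over the square root of F. Labelled and unlabelled counts (all minus labelled) used the sizes and TMM factors of all reads. In data simulated for the 6 h against 4 h comparison over 10038 genes, 8, 21, 39 and 44 of 50 genes changed 1.5-, 2-, 3- and 4-fold were recovered, with 9 false calls. Replicates of these groups differed by more than sampling noise (chi-square 2.83 to 7.02 per degree of freedom). PCR reads are not independent molecules, and depth limits calls of small changes.

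The named genes are ZC3H7B and ZC3H7A, the 8 largest called rises and falls with a mean of at least 16 CPM and no overlap, the 6 with the smallest adjusted p each way, and up to 3 members per list and direction. The comparison, the rule and the 41 gene lists were chosen with earlier results of these data known. HSP90AA1, HSPA8, HSPD1 and DNAJA1 were named after their values were seen. Transcript features come from GENCODE 29 (1 transcript per gene, 93.8% of entries matched) and promoters from RefSeq GRCh38.p14 by symbol (7351 tested genes matched); a different build from the files', so coordinates are given for the printed promoter windows alone, in GRCh38.p14. Alternatives were DESeq2 1.42.0, limma-voom, other scaling, filters and library subsets. The GC and length corrections (lowess per library) and the fit without the third control library at 0 h were added after seeing the data.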

Additional observations from a re-analysis of the deposited data

How the results depend on the processing

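Calls of the 6 h against 4 h step in ZC3H7B-OE cells were within 1.5 times the main counts with DESeq2 size factors, no filter, a minimum count of 30, the DESeq2 test, limma-voom and without entries naming several genes. They rose to 1453 rises and 1441 falls in the 6 libraries alone (50.2% rises, against 61.7% in the common fit), to 1476 and 1087 in the 12 ZC3H7B-OE libraries and to 1535 and 1098 without the third control library at 0 h. They fell to 357 and 264 with the GC trend removed and to 452 rises with the GC and length trends removed, where falls were 409. Leaving out 1 library gave 340 to 782 rises and 154 to 476 falls. In control cells the counts were 119 to 354 and 90 to 202 without 1 library, 1418 and 1114 in the 6 libraries alone, 1250 and 768 without the third control library at 0 h, 869 rises with limma-voom and 506 falls with DESeq2. The difference between the lines had 1 rise with no filter, with DESeq2 and without the third control library at 0 h, and 15 rises in the 12 libraries of both steps alone. Labelled reads gave 1 to 13 rises and 2076 to 2720 falls without 1 library, unlabelled reads 1522 to 1945 rises and 81 to 210 falls; scaled by their own totals they gave 82 and 58, and 278 and 599. Replicate numbers do not pair the libraries (deviations of same-numbered libraries correlated at -0.02 to 0.01); with a replicate block 775 entries rose and 458 fell over 24 libraries, and 1494 and 1514 over the 6. ZC3H7B, not called, had 0.093 with the GC trend removed and 0.0038 with GC and length removed; the cause was not tested. No named called gene changed direction; 76 of the 137 lost their call without at least 1 library. At this depth genes with few reads cannot be compared.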
